A study of Mus musculus with 24 samples.

Results

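Livers lacking E2f7 and E2f8 in the liver lineage (LKO) were compared with control livers before any acetaminophen (APAP) was given, over all expressed genes. The 8 libraries compared, 4 LKO and 4 control at 0 h, were taken from the 24 libraries of the series by their genotype and time labels alone. LKO mice carried floxed E2f7 and E2f8 (E2f7/E2f8 loxP/loxP), the R26R mTmG reporter on both alleles and a single copy of the Alb-Cre transgene (Tg/0). The controls, labelled WT, were littermates without the transgene and kept the floxed alleles and the reporter. All 8 were males of 2.5 months on a mixed, predominantly FVB background, fasted for about 16 h, and each library holds polyA RNA of the whole liver of 1 mouse.

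The albumin promoter drives Cre in hepatocytes and their lineage from development onward, so other liver cells kept both genes, and the comparison holds a lifelong deletion with whatever followed from it. The study reports that hepatocytes of LKO livers were mostly diploid and those of controls mostly polyploid. Another cohort (HKO, 3 mice) had the same floxed genes deleted in adult hepatocytes by the virus AAV8-TBG-Cre, with 3 AAV8-TBG-Null mice as controls, and 10 libraries from 12 to 96 h after 300 mg/kg APAP are pools of 3 mice of 1 genotype of the LKO cohort. These mice too were males of 2.5 months, fasted for about 16 h. HKO mice and their controls also carried the mTmG reporter, and the study reports its recombination in HKO hepatocytes. In whole-liver RNA, fewer cells of a type and less RNA per cell cannot be told apart.

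E2F proteins bind DNA at the promoters of genes needed to copy DNA and divide. E2F1, E2F2 and E2F3 mostly switch these targets on, while E2F7 and E2F8 are atypical members that bind without a DP partner and repress them. In the growing liver both are known for their part in hepatocyte polyploidization, the change from diploid cells to cells with several genome copies, by holding down genes of cytokinesis and mitosis. The resting adult liver holds few dividing cells, so transcripts of E2F targets are scarce in it.

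Each mouse gave between 12665686 and 19046197 reads on genes. Levels are in CPM, counts per 1000000 reads of scaled library size, and the floor of detection, set at 3 reads, lay at 0.158 to 0.237 CPM for counting error alone. Unmapped reads made up 6.74%, 12.0%, 20.6% and 4.11% of the reads of control mice 1 to 4 and 13.5%, 4.37%, 7.2% and 5.23% of those of LKO mice 1 to 4. All 8 libraries carried the liver's own transcripts, with the summed level of 10 hepatocyte markers between 96485 and 140097 CPM in controls and between 70286 and 112757 CPM in LKO mice, and all 10 markers were detected. Total E2f8 reads did not separate the genotypes. Control mice had 18.3, 17.8, 15.8 and 11.4 CPM of E2f8 and LKO mice 21.6, 26, 33.2 and 17.4 CPM. The groups overlapped, and the level was higher in LKO by 0.63 on the log2 scale (95% interval 0.16 to 1.11, unadjusted p = 0.0138, adjusted p = 0.999, edgeR quasi-likelihood test). E2f7 had 2, 7, 4 and 6 reads in controls and 3, 3, 4 and 4 in LKO mice, too few to test. Reads were counted over whole genes, so reads on exons outside the deleted part are included and the counts do not check the genotype.

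The baseline livers of LKO and control mice differed little gene by gene. Of 12426 genes tested, 0 (0.0%) were called, at 1.5-fold or more and an adjusted p under 0.05, by edgeR's quasi-likelihood test with Benjamini-Hochberg adjustment, and the smallest adjusted p was 0.257, for Gt(ROSA)26Sor. At an unadjusted p under 0.05, the same edgeR test picked 352 genes (2.83%), with 232 (1.87%) higher in LKO and 120 (0.966%) lower. This count, from which the shares given beside the lists come, was 703 with library size only, 733 without control mouse 4, 536 without LKO mouse 1 and 198 without control mouse 2. DESeq2 called 3 of 17611 genes (0.017%). These were Gt(ROSA)26Sor, Egr1 and Foxa3, with DESeq2 adjusted p-values of 0.000144, 0.000582 and 0.0231. In 230 genes (1.85%) the values of the 4 LKO mice did not overlap those of the 4 controls, 160 higher (1.29%) and 70 lower (0.563%) in LKO.

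The intervals give the range of differences that these mice allow. The middle of the distribution was narrow, with log2 fold changes of -0.12 and 0.14 at the 25th and 75th percentiles and -0.77 and 0.89 at the 1st and 99th. The median standard error was 0.19 and the median half-width of the 95% interval 0.43. For 10103 genes (81.3%) the whole interval lay inside 2-fold in either direction, and for 6371 (51.3%) inside 1.5-fold. Among the 7772 genes with a mean of at least 10 CPM, 7372 (94.9%) lay inside 2-fold, whereas of 706 genes under 1 CPM 64 (9.07%) did, so for most scarce transcripts a 2-fold difference is not left out by the interval. A fold change of at least 2 was estimated for 74 genes higher and 57 lower in LKO.

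**Figure D1:**
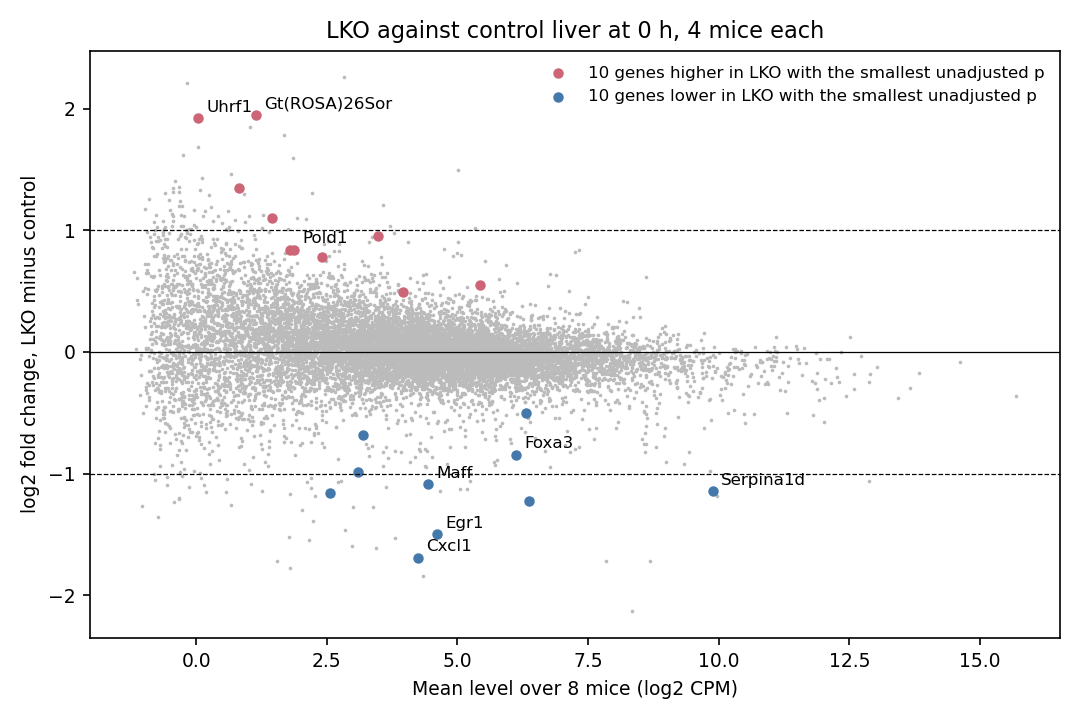
Log2 fold change of LKO over control at 0 h against the mean level over the 8 mice in log2 CPM, with 1 point per gene for the 12426 genes tested, dashed lines at 2-fold, and the 10 genes on each side with the smallest unadjusted p in colour. The cloud narrows with the level, with 411 genes estimated at least 1.5-fold higher and 243 at least 1.5-fold lower and 0 called.

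The direction of the small differences moved with the level of the gene. Of 3948 genes between 1 and 10 CPM, 62.3% were higher in LKO, with a median log2 fold change of 0.09, while of 1383 genes between 100 and 1000 CPM 30.4% were higher, with a median of -0.06. Among the 125 genes of 1000 CPM or more 12.8% were higher and the median was -0.13. The 10 hepatocyte markers belong to the abundant end and were all lower in LKO, with a median of -0.23, where 87.2% of all genes of 1000 CPM or more were lower. At an unadjusted p under 0.05 2 of them were lower, where 0.966% of all genes and 1.6% of those at the markers' levels were. In 2 the groups did not overlap, where 0.563% of all genes did so on the lower side. Scaling by library size alone in place of TMM moved the median of all genes by 0.13, so the split of higher and lower genes depends on the scaling, and it was 49.7% higher and 50.3% lower with TMM.

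Gt(ROSA)26Sor, the noncoding transcript of the Rosa26 locus in which the mTmG reporter is inserted, had the smallest p of all genes. It measured 0.917, 1.11, 0.668 and 0.893 CPM in controls and 4.18, 2.74, 3.08 and 4.04 CPM in LKO mice. Every LKO mouse lay above every control, and the log2 fold change was 1.95 (95% interval 1.35 to 2.55, edgeR unadjusted p = 2.07e-05, adjusted p = 0.257). The gene lies at chr6:113067428-113077244 (RefSeq, GRCm38.p6), where Cre also recombines the reporter, and that recombination cannot be told apart from the loss of E2f7 and E2f8. The counts used disregard strand, so antisense reads are included. With stranded counts the log2 fold change was 1.03 (edgeR adjusted p = 0.9997). The study names this gene, Egr1 and Foxa3 for these same samples, so their directions are not independent evidence.

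Egr1, an immediate-early zinc finger transcription factor, had 24.7, 35.2, 31.0 and 52.5 CPM in controls and 8.69, 17.5, 9.92 and 14.6 CPM in LKO mice. No value overlapped, and the log2 fold change was -1.50 (95% interval -2.10 to -0.90, edgeR unadjusted p = 0.000205, adjusted p = 0.999). Foxa3 (chr7:19013283-19023539), a forkhead factor of the hepatocyte network, had 68.7, 103, 98.3 and 86.2 CPM in controls and 59.4, 46.9, 40.5 and 51.7 CPM in LKO mice. Its groups were also apart, by a log2 fold change of -0.84 (95% interval -1.20 to -0.48, edgeR unadjusted p = 0.000329, adjusted p = 0.999). Maff, a small MAF transcription factor, stood at 24.9, 37.9, 25.5 and 29.6 CPM against 20.7, 9.53, 11.2 and 14.3 CPM, with a log2 fold change of -1.08 (interval -1.61 to -0.56) and an edgeR unadjusted p of 0.000902. Fos, another immediate-early factor, was at -0.82 with an interval from -1.93 to 0.28.

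The other genes with the smallest p among those lower in LKO included Serpina1d, Cxcl1, Pfkfb3, Per1, Nrg4 and Fam46c. Serpina1d, an alpha-1 antitrypsin of the liver, had 947, 1280.2, 2064 and 914 CPM in controls and 739, 422, 697 and 503 CPM in LKO mice, with no overlap, but its near-identical copies Serpina1a and Serpina1b share sequence with it and only uniquely mapped reads were counted. Cxcl1, a neutrophil-attracting chemokine, ranged from 9.51 to 48.7 CPM in controls and from 5.76 to 11.9 CPM in LKO mice. Its log2 fold change was -1.69 (interval -2.71 to -0.67), and control mouse 1, the lowest control, lay inside the LKO range. Without the 3 libraries with over 10% unmapped reads it was -0.44 for Cxcl1 and -0.41, from -0.98, for Nrg4, which was also at -0.46 with stranded counts. Per1, a repressor of the circadian clock, had 87.7, 108, 79.7 and 97.2 CPM against 79.1, 56.7, 62.0 and 65.8 CPM, which are apart by less than 1 CPM at the nearest pair.

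Among those higher in LKO, the smallest p after Gt(ROSA)26Sor belonged to Acbd4, Uhrf1, Tnfaip2, Gbp3, Hddc2, Ikzf1, Pold1, Stk10 and Pbxip1. Acbd4 (chr11:103101688-103112199), an acyl-CoA binding protein, had 35.5, 38.3, 28.5 and 36.7 CPM in controls and 52.0, 48.0, 54.3 and 49.8 CPM in LKO mice. The log2 fold change was 0.55 (95% interval 0.27 to 0.83, edgeR unadjusted p = 0.00115). Gbp3, an interferon-induced guanylate-binding protein, had 4.41, 3.61, 4.26 and 3.33 CPM in controls and 7.34, 6.35, 7.62 and 5.48 CPM in LKO mice, a difference of 0.78 without overlap. Ikzf1, a transcription factor of lymphoid cells, had 1.6, 0.555, 0.668 and 1.07 CPM against 2.90, 1.78, 2.75 and 2.77 CPM. Without the 3 libraries with over 10% unmapped reads Ikzf1 was at 0.85, from 1.35, Tnfaip2 at 0.58, from 0.96, and Pbxip1 at 0.33, from 0.49. Uhrf1 and Pold1 are E2F targets and are described with them.

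**Figure D2:**
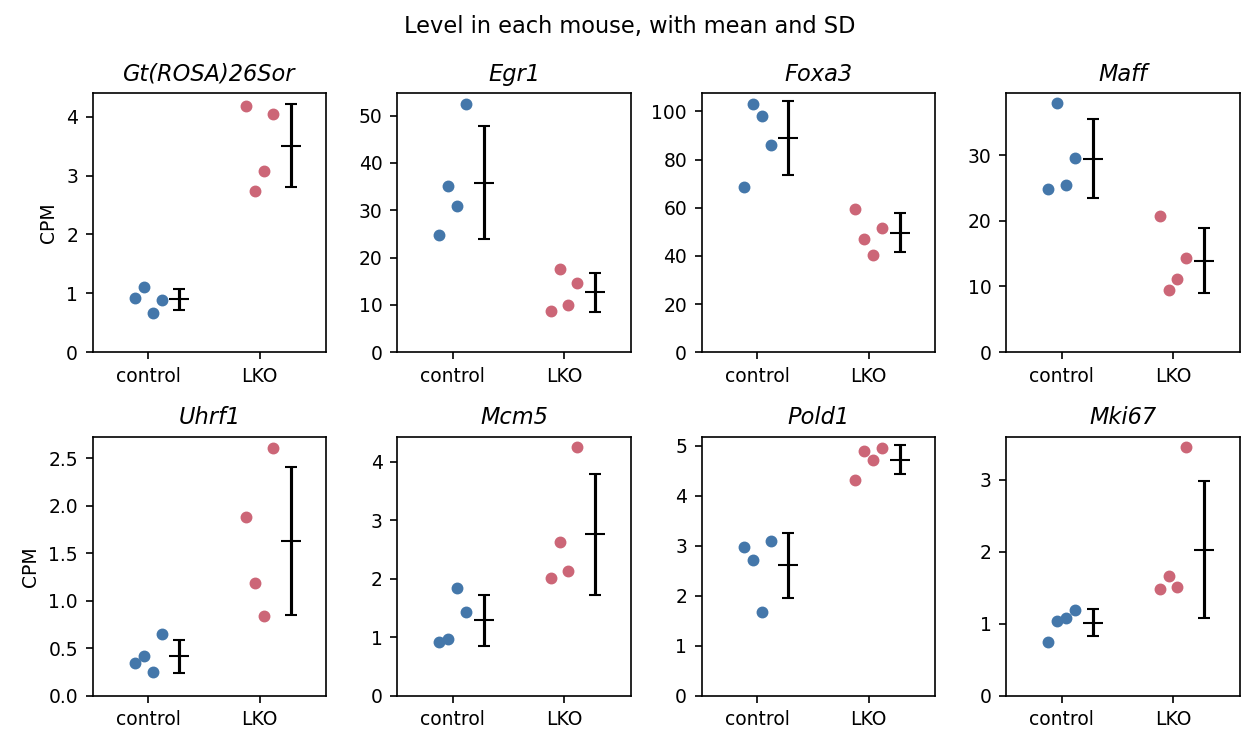
CPM, on axes that start at 0, of Gt(ROSA)26Sor, Egr1, Foxa3, Maff, Uhrf1, Mcm5, Pold1 and Mki67 in each of the 4 control and 4 LKO mice at 0 h, with 1 point per mouse and the mean and SD beside the points. In each of the 8 genes every LKO mouse lies on the same side of every control.

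Genes that E2F factors are known to drive were more often higher than lower in LKO, but by small amounts and in scarce transcripts. Of 50 genes of S phase and DNA replication, 42 passed the filter on low counts, and these had a median log2 fold change of 0.26 beside 0.00 over all genes tested. Of the 42, 30 were higher and 12 lower, where 49.7% of all genes and 58.3% of those at the members' levels were higher. Among them 0 were called (0.0% of all genes were), and at an unadjusted p under 0.05 7 were higher, where 1.87% of all genes and 3.00% of those at the members' levels were, and 1 was lower, where 0.966% of all genes were. In 5 members the groups did not overlap, all higher in LKO, against 1.29% of all genes. Scarce genes as a whole also leaned upward. The 31 members between 1 and 10 CPM had a median of 0.33 beside 0.09 for all genes of that level, with 25 higher, whereas the 8 members between 10 and 100 CPM had a median of 0.04 beside -0.02, with 4 higher.

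Letters that resemble the E2F binding site were searched on both strands of RefSeq promoters of GRCm38.p6, from 250 bases before to 50 after the start site. The 5 strings were TTTGGCGC, TTTCGCGC, TTTGGCGG, TTTCCCGC and GGCGGGAA, of which the reverse complement of TTTCCCGC overlaps GGCGGGAA, and TTTCGCGC can overlap the reverse complement of TTTGGCGC. At least 1 of them was found in 1296 of 32851 promoters (3.95%). Of the 42 S phase members tested, 35 had a promoter in the table and 19 of these (54.3%) held a match, and of the 19 G2/M members tested, 18 had a promoter and 1 (5.56%) held a match. The S phase members with a match had a median log2 fold change of 0.44 in LKO, with 16 of 19 higher, and those without had 0.15, with 10 of 16 higher. Over all 12426 genes tested, 9529 had a promoter in the table, 785 of these (8.24%) held a match, and the median was 0.00 with a match (399 of 785 higher) and -0.00 without. Since under 80% of the tested genes had a promoter, this comparison over all genes is void, and the S phase split is given as a description only. The upstream stretches below are examples from S phase members that have an unadjusted p under 0.05 and a match before the start site. Dnmt1, with a match in 1 of its 3 promoters, is another such member and is not shown. Capitals mark the matched letters, and each stretch is written 5′ to 3′ on the strand of the gene.
Uhrf1, chr17:56303249-56303336, plus strand: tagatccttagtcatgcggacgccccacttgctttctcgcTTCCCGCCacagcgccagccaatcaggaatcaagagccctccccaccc
Mcm5, chr8:75109316-75109407, plus strand: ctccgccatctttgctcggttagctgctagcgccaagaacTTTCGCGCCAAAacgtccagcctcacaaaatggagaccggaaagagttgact
Gins3, chr8:95633478-95633558, plus strand: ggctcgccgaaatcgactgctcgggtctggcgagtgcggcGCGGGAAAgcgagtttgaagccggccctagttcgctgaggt
Pola1, chrX:93632246-93632333, minus strand: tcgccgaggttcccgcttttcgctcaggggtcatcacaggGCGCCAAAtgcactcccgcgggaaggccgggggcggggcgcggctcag
In Mcm5 the capitals are the overlap of TTTCGCGC with the reverse complement of TTTGGCGC. In Uhrf1 they are the reverse complement of GGCGGGAA, and in Gins3 that of TTTCCCGC. A match is a description of the letters and not a binding site that was measured.

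The S phase members at an unadjusted p under 0.05 cover several steps of replication, and were picked out after their values were seen. Uhrf1 guides DNA methylation to newly copied DNA. It had 0.344, 0.416, 0.250 and 0.655 CPM in controls and 1.89, 1.18, 0.840 and 2.61 CPM in LKO mice, a log2 fold change of 1.92 (95% interval 0.91 to 2.93, edgeR unadjusted p = 0.00155) without overlap. Pold1, the catalytic subunit of DNA polymerase delta, had 2.98, 2.70, 1.67 and 3.09 CPM against 4.31, 4.90, 4.71 and 4.95 CPM, with 0.84 (interval 0.34 to 1.34, edgeR unadjusted p = 0.00361), and the LKO mice lay closer to each other than the controls did. Mcm5 and Mcm3 are subunits of the MCM helicase that opens the DNA ahead of the fork. Mcm5 had 0.917, 0.971, 1.84 and 1.43 CPM in controls and 2.02, 2.64, 2.13 and 4.26 CPM in LKO mice, with a log2 fold change of 1.11 (interval 0.36 to 1.87). Mcm3 had 3.67, 3.26, 3.26 and 2.56 CPM against 4.04, 4.31, 4.71 and 5.43 CPM, with 0.54 (interval 0.09 to 0.99). Both helicase subunits were apart between the groups.

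Gins3, a part of the GINS complex that activates the helicase, was near the floor in controls, at 0.573, 0.555, 0.668 and 0.238 CPM, and at 0.808, 1.51, 1.06 and 1.22 CPM in LKO mice. Pola1, the polymerase that starts new strands, overlapped between the groups, with 3.78, 3.81, 2.09 and 3.09 CPM in controls and 5.05, 3.55, 5.21 and 4.95 CPM in LKO mice. Dnmt1, the maintenance DNA methyltransferase, was at a log2 fold change of 0.39 (interval 0.02 to 0.75). The exception in direction was Mcm10, a replication initiation factor. It had 162, 219, 253 and 95.6 CPM in controls and 89.3, 87.0, 126 and 111 CPM in LKO mice, a log2 fold change of -0.82 (interval -1.40 to -0.24, edgeR unadjusted p = 0.0103). The groups overlapped through control mouse 4, and no match of the 5 strings was found in the Mcm10 promoter.

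The members often used to mark replicating tissue did not differ detectably. Pcna, the sliding clamp of the fork, was at -0.23 (interval -0.69 to 0.22), Tk1, a thymidine kinase, at -0.04 (interval -0.66 to 0.58), and Rrm2, a subunit of ribonucleotide reductase, at 0.46 (interval -0.48 to 1.40). The interval of Pcna and that of Tk1 lie inside 2-fold, and that of Rrm2 does not. The intervals of 24 of the 42 members lie inside 2-fold.

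In the G2/M and mitosis list 19 of 35 genes were tested, with 16 higher, 3 lower and a median log2 fold change of 0.39. Of all genes at the members' levels 60.9% were higher. At an unadjusted p under 0.05 3 were higher, where 1.87% of all genes and 3.56% of those at the members' levels were, and 0 lower, and these 3 had groups apart, where 1.29% of all genes did in this direction. The 13 members between 1 and 10 CPM had a median of 0.39, with 12 higher, at a level where all genes had a median of 0.09 and 62.3% were higher. Mki67, which coats mitotic chromosomes, had 0.745, 1.04, 1.09 and 1.19 CPM in controls and 1.48, 1.67, 1.51 and 3.46 CPM in LKO mice, a log2 fold change of 1.01 (95% interval 0.22 to 1.80, edgeR unadjusted p = 0.0172). Top2a, which untangles sister chromatids, had 1.03, 0.485, 1.09 and 1.01 CPM against 1.21, 1.51, 1.62 and 2.29 CPM, with 0.88 (interval 0.12 to 1.63). Birc5, a subunit of the chromosomal passenger complex, had 2.35, 1.87, 1.67 and 2.14 CPM against 2.36, 3.71, 4.31 and 2.45 CPM, and its groups all but touched. Cdk1, the kinase that starts mitosis, overlapped, with 0.39 and an interval from -0.59 to 1.36. The intervals of 7 of the 19 lie inside 2-fold, and those of the other 12 reach past it. Without LKO mouse 4 the median of the list was 0.17, and that of the S phase list 0.16. Without control mouse 4 the G2/M median was 0.21, and with stranded counts the S phase median was 0.15.

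DNA repair targets of E2F leaned the same way, with 11 of 14 tested members higher (61.9% of all genes at the members' levels were) and a smaller median of 0.14. At an unadjusted p under 0.05 1 of the 14 was higher, where 1.87% of all genes and 3.67% of those at these levels were, the recombination factor Xrcc2 at 0.73 (interval 0.06 to 1.41). That median was 0.022 with stranded counts, and between 0.07 (without LKO mouse 2) and 0.23 (without LKO mouse 1) when 1 mouse was left out. The cytokinesis list did not lean upward, with 4 of 10 tested members higher, where 52.0% of all genes at their levels were, 6 lower and a median of -0.06. Its 5 members with a mean of at least 10 CPM were Rhoa, Rhob, Rhoc, Rock1 and Rock2. At an unadjusted p under 0.05 2 of the 10 were higher, where 1.87% of all genes and 2.29% of those at the members' levels were, and 0 lower. These were Incenp, the scaffold of the passenger complex, at 1.03 (interval 0.15 to 1.90) and Kif20b, a midzone kinesin, at 1.18 (interval 0.14 to 2.21), both close to or below 1 CPM in controls. Of the 13 genes of the E2F family and their DP partners, 12 were tested with a median of -0.02, and E2f8 alone had an unadjusted p under 0.05. E2f1, the activator, was at 0.31 (interval -0.21 to 0.83) and E2f3 at 0.03 (interval -0.43 to 0.50).

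**Figure D3:**
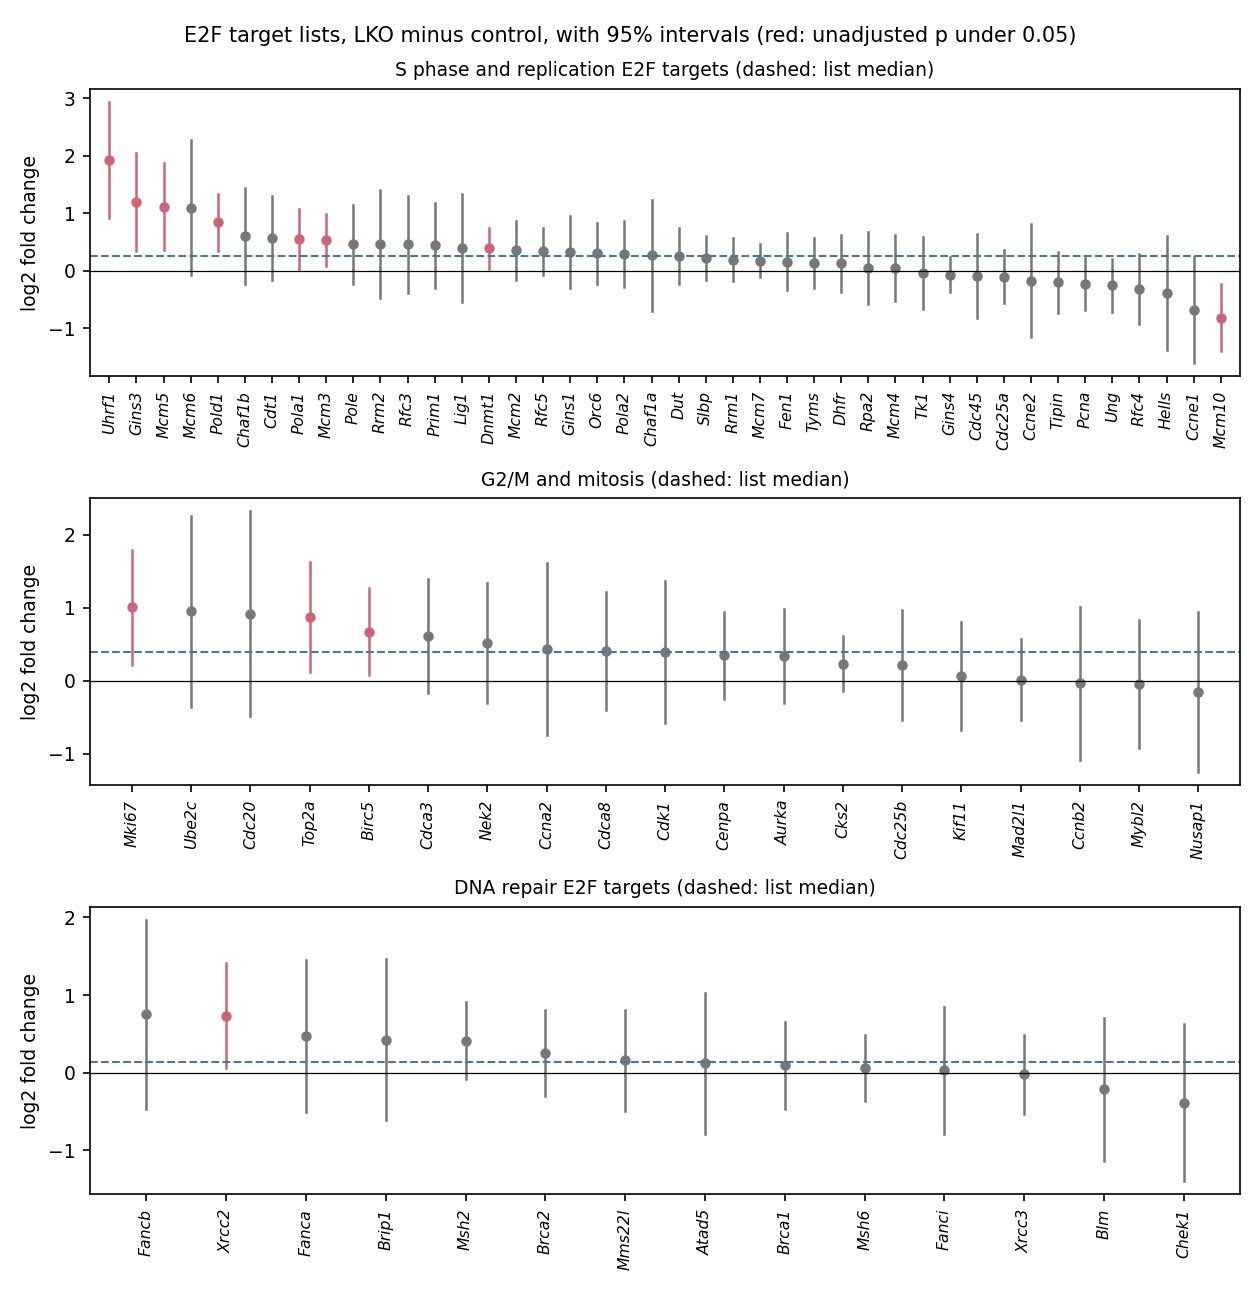
Log2 fold change of LKO over control with its 95% interval for each tested member of the S phase, G2/M and DNA repair lists, ordered by size, with the list median dashed and members at an unadjusted p under 0.05 in red. Most points lie above 0 (30 of 42, 16 of 19 and 11 of 14), and most intervals include 0.

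Markers of other cells were read beside these lists, since dividing cells of any type carry the same transcripts. The 7 tested markers of T and NK cells had a median of 0.52, with 6 higher, where 60.8% of all genes at the markers' levels were, and 2 higher at an unadjusted p under 0.05, where 1.87% of all genes and 3.95% of those at these levels were. The summed level of the list ran from 4.72 to 7.10 CPM in controls and from 7.80 to 10.5 CPM in LKO mice, without overlap. Summed B and plasma cell markers ran from 6.13 to 7.08 CPM and from 6.03 to 9.74 CPM. Of 15 Kupffer cell and macrophage markers 13 were higher in LKO, where 53.1% of all genes at their levels were, with a median of 0.30. The marker at an unadjusted p under 0.05, Ccr2, a chemokine receptor of monocytes, was lower in LKO without overlap, at -0.72 (interval -1.41 to -0.03, edgeR unadjusted p = 0.0434). The sums of the list were 306, 314, 375 and 264 CPM in controls and 635, 284, 285 and 347 CPM in LKO mice, so that LKO mouse 1 alone lay outside the control range. Sinusoidal endothelial markers, 13 of 13 tested, had a median of 0.05 and sums of 482 to 560 CPM and 494 to 575 CPM. In these 4 lists no marker found in the files was at 0 in all 8 mice, and their part in the E2F target values was not tested. Without the 3 libraries with over 10% unmapped reads the S phase median was 0.17.

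Interferon-stimulated genes also leaned upward, with 35 of 39 higher, a median of 0.26 and 8 at an unadjusted p under 0.05, all higher, where 1.87% of all genes were. Of all genes at the members' levels 54.6% were higher, and 2.48% were so at an unadjusted p under 0.05. Irf7, the factor that amplifies the interferon response, had 28.8, 20.9, 18.2 and 24.2 CPM in controls and 48.6, 22.7, 38.8 and 51.9 CPM in LKO mice, a log2 fold change of 0.81 (95% interval 0.27 to 1.35, edgeR unadjusted p = 0.00715) with overlap through LKO mouse 2. Mx1, an antiviral GTPase, had 0.229, 0.208, 0.668 and 0.536 CPM against 2.02, 0.753, 1.01 and 0.585 CPM. Of 16 genes of MHC class II and antigen processing 14 were higher, where 44.7% of all genes at their levels were, with a median of 0.32, 5 at an unadjusted p under 0.05 (on the higher side 1.87% of all genes and 1.45% at these levels) and 4 without overlap (1.29%). Ciita, the master activator of MHC class II genes, had 1.32, 0.832, 0.918 and 0.595 CPM in controls and 1.55, 1.56, 1.51 and 1.49 CPM in LKO mice, the latter almost equal to each other. The Kupffer cell and lymphocyte sums given above also lay higher in LKO mice in part, and their part in these lists was not tested. In the HKO cohort, which shares no mice, the interferon list had a median of 0.55 and the MHC list 0.36.

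For the enzymes that activate and conjugate APAP no gene was called before the drug, with 9 of 25 tested members higher, 16 lower and a median log2 fold change of -0.14. The share lower was 64.0%, beside 66.3% of all genes at the members' levels. Cyp2e1, the P450 that makes most of the toxic metabolite, had 8837, 6917, 7368 and 9490.2 CPM in controls and 4807, 7485, 8096 and 7071 CPM in LKO mice. The groups overlapped, with -0.25 and a 95% interval from -0.67 to 0.17, so a deficit in LKO of up to 0.67 on the log2 scale is allowed by these mice. Cyp1a2, which shares this reaction, had 853, 890.1, 798 and 1052 CPM against 624, 745, 884 and 668 CPM, with -0.30 (interval -0.64 to 0.04). Por, the reductase that feeds electrons to all microsomal P450 enzymes, had 589.5, 951, 592 and 695 CPM against 604, 432, 462 and 454 CPM, with -0.54 (interval -0.95 to -0.12, edgeR unadjusted p = 0.0156), and only LKO mouse 1 reached the control range. Por and Gstp2, at -1.14, were the members at an unadjusted p under 0.05 (0.966% of all genes on the lower side and 1.29% at these levels), and Gstp2 has a near-identical copy in Gstp1. Without control mouse 4 the median of this list was 0.030, so its sign rests on 1 library.

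The kinases of the JNK pathway, which carries the injury signal of APAP, had 0 members called. The list's 21 tested members had a median of 0.00, with 12 higher and 9 lower. For 17 of the 21 the interval lies inside 2-fold, and for the other 4 it reaches past it. The lowest member was Map3k5, encoding the stress kinase ASK1, at -0.75 (interval -1.52 to 0.01). The member at an unadjusted p under 0.05, as 0.966% of all genes were on the lower side, was Dusp16, a phosphatase of JNK, with 45.2, 56.4, 60.4 and 52.7 CPM in controls and 44.0, 47.2, 44.4 and 42.1 CPM in LKO mice. Its groups overlapped, with -0.27 (interval -0.54 to -0.00, edgeR unadjusted p = 0.0474). Mapk8, encoding JNK1, had 18.7, 19.6, 22.3 and 19.9 CPM in controls and 18.5, 16.4, 24.1 and 21.6 CPM in LKO mice, with 0.00 (95% interval -0.32 to 0.32). Mapk9, encoding JNK2, had 60.9, 50.5, 53.9 and 56.2 CPM against 51.3, 51.8, 66.3 and 53.4 CPM, with 0.01 (interval -0.27 to 0.29). The upstream kinases Map2k4 and Map2k7 were at -0.19 (interval -0.53 to 0.16) and 0.07 (interval -0.26 to 0.41). For these 4 kinases the intervals leave out a 1.5-fold difference in either direction.

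Several liver programmes had more members lower than higher in LKO, with no gene called. Abundant genes leaned lower in general, so the share of all genes lower at the members' levels, each level band weighted by its number of members, stands beside each list. All 10 tested major urinary proteins were lower (59.0% of all genes at these levels were), with a median of -1.02 and 1 at an unadjusted p under 0.05, where 0.966% of all genes were lower. Of 24 male-biased liver genes 23 (95.8%) were lower, beside 64.0% of all genes, with a median of -0.47. Of 20 female-biased genes 14 (70.0%) were higher, beside 51.4%, with 0.30. ER stress genes were lower in 22 of 27 (81.5% beside 65.3%, median -0.38) and cytosolic heat shock proteins in 21 of 22 (95.5% beside 63.5%, median -0.33). Of 19 core clock genes 15 were lower (78.9% beside 55.0%, median -0.26), and of 29 acute-phase genes 24 (82.8% beside 67.9%, median -0.18). Core clock members ran from -1.11 to 2.21, with 1 higher and 3 lower at an unadjusted p under 0.05. Of all genes at the levels of the clock members 1.23% were higher and 1.06% lower at that p. Members of the sex-biased, urinary protein, ER stress, heat shock and acute-phase lists also differed together between mice of a genotype, as the spread below shows. Their counts on one side are therefore not independent. The female-biased gene Ntrk2, a neurotrophin receptor, had 5.39, 0.347, 1.00 and 2.86 CPM in controls and 2.69, 12.9, 16.1 and 15.3 CPM in LKO mice, with 2.26 (interval 0.75 to 3.76, edgeR unadjusted p = 0.00729) and overlap through LKO mouse 1.

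Whether the LKO effect differs from that of deletion in adult hepatocytes was tested as the LKO difference minus the HKO difference over 14 mice. Of 12945 genes 0 were called by edgeR (0.0%), 579 (4.47%) had an unadjusted p under 0.05, and DESeq2 called 19 of 12638 (0.15%). The smallest edgeR adjusted p was 0.0739, for St5 and for Egr1. Egr1 was at -1.50 in LKO and at 1.14 in HKO, a difference of -2.65 (SE 0.41), whereas Gt(ROSA)26Sor was higher in both cohorts, 1.95 and 1.65, with a difference of 0.29 (edgeR unadjusted p = 0.595). Cre recombined the reporter at the Rosa26 locus in LKO and HKO livers, which cannot be told apart from the shared loss of E2f7 and E2f8. Maff was lower in both cohorts, at -1.08 and -1.05. Among E2F targets the difference was 1.09 for Pold1 (SE 0.31, edgeR unadjusted p = 0.0035, adjusted p = 0.775), which was at -0.25 in HKO, and 1.64 for Uhrf1 (SE 0.82, edgeR unadjusted p = 0.0632). The tested S phase members had a median of 0.01 in HKO, and the G2/M members 0.17. The cohorts also differ in the virus, the age at deletion and hepatocyte ploidy, which cannot be told apart from each other. By the study's report LKO livers were mostly diploid, whereas HKO livers stayed mostly polyploid. Reads that fell in no annotated gene made up 8.47% to 10.7% in the LKO cohort and 12.6% to 14.7% in the HKO cohort.

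The pools taken after APAP hold other mice, and each is 1 library of 1 genotype at 1 time, so their ratios have no replicate check. Of the 10 genes lowest in p on the lower side at 0 h, 5, among them Foxa3, Maff, Serpina1d and Cxcl1, were lower in the LKO pool at all of 12, 24, 48, 72 and 96 h, where 8.33% of all genes were. Maff was lower by 1.02, 1.36, 2.85, 1.12 and 1.2 on the log2 scale at these times in order, whereas Foxa3 had ratios from -1.01 to -0.02. Of the 10 on the higher side, Gt(ROSA)26Sor alone was higher in all 5 pools, by 1.44, 1.71, 1.2, 2.93 and 0.84, where 8.97% of all genes were. Hddc2, higher in LKO at 0 h, was lower in the LKO pool at all 5 times, and Uhrf1 and Pold1 were higher in 4 of 5. The LKO over control ratio of E2f8 lay between 0.89 and 2.09 on the log2 scale at the 5 times.

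The spread between mice was measured per gene as the standard deviation (SD) of log2 CPM within a genotype, pooled over both, for 7773 genes with a mean of at least 10 CPM. The median SD was 0.225, 10.0% of genes lay above 0.439, and 75 genes exceeded 1. The spread was of the same size in both, with a median SD of 0.216 in controls and 0.213 in LKO mice.

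The programmes that varied most between mice of a genotype were the sex-biased and pheromone genes of the liver, which in mice are set by the pulses of growth hormone. Among 30 programmes with at least 5 members at this level, female-biased genes came first, with a median SD of 1.52 and 10 of 11 members above the 90th percentile of all genes. Major urinary proteins followed with 1.28 (6 of 7) and male-biased genes with 0.662 (16 of 23). The order of the first pair was not fixed, since major urinary proteins came before female-biased genes in 7 of 16 other settings, among them stranded counts and control mice alone. Next came ER stress and the integrated stress response at 0.544 (15 of 24), the P450 families 2 and 3 at 0.465 (15 of 29), immediate-early genes at 0.451 (11 of 20), acute-phase proteins at 0.440 (13 of 25) and cytosolic heat shock proteins at 0.435 (10 of 21). The lowest medians were those of the JNK pathway at 0.204 (3 of 15), G1 cyclins and kinases at 0.250 (2 of 6) and MHC and antigen processing at 0.256 (1 of 12). The median over all genes was 0.225, so of these only the JNK pathway lay below it. S phase targets with enough reads stood at 0.326, with 2 of 9 above the 90th percentile. Members of the Mup and P450 families share sequence, so reads may be split between near-identical copies. Lists also share members. Cyp2b9 and Cyp2b10 are in the female-biased and P450 lists, and Cyp4a10, Cyp4a14 and Acot3 in the female-biased and PPAR-alpha lists.

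**Figure D4:**
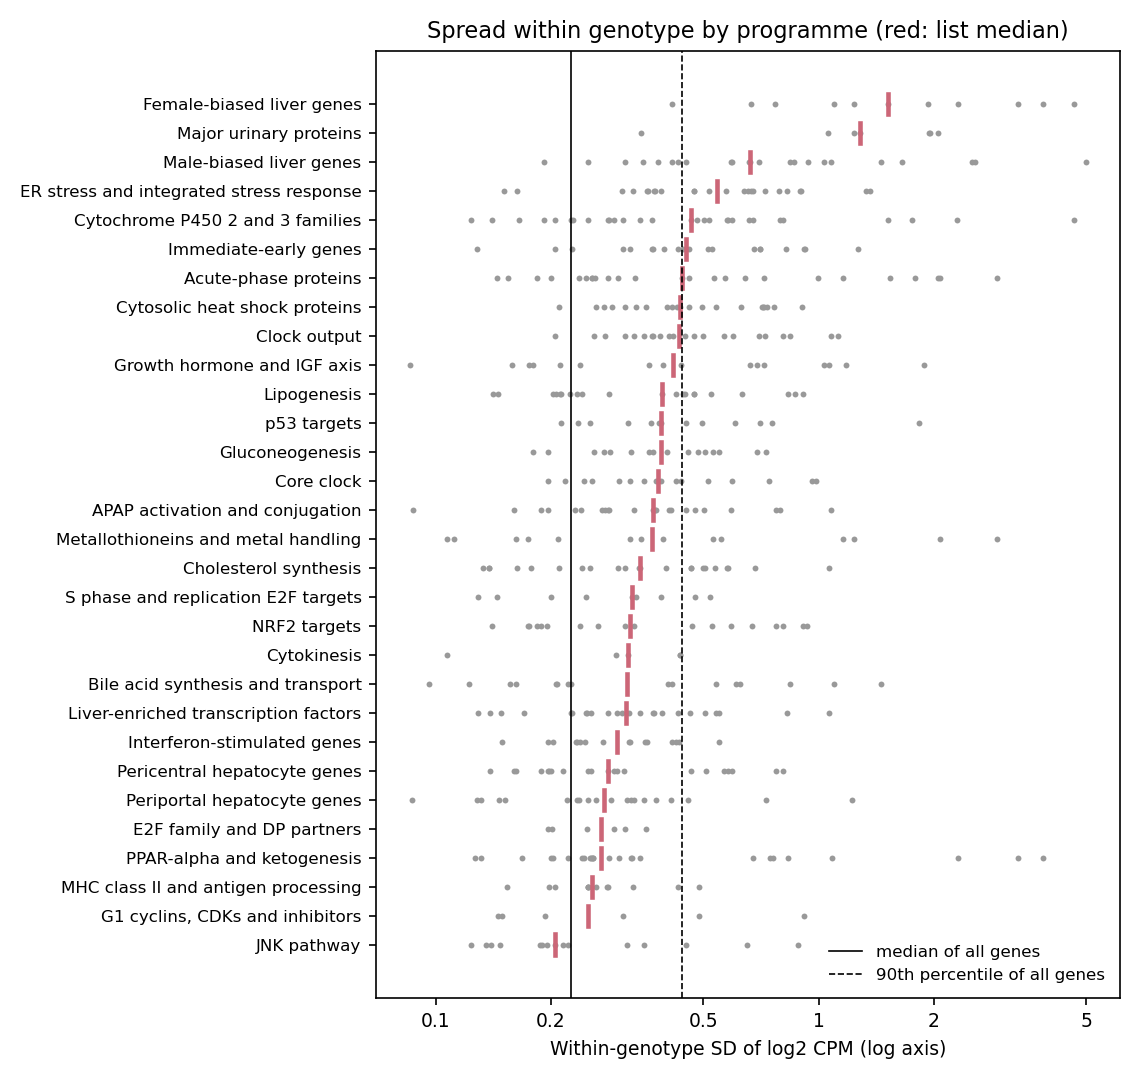
Within-genotype SD of log2 CPM at 0 h, on a log axis, with 1 point per member with a mean of at least 10 CPM, list medians in red and lines at the median and the 90th percentile of all genes. Female-biased genes, major urinary proteins and male-biased genes have the highest medians, 1.52, 1.28 and 0.662, against 0.225 over all genes.

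Many male-biased and female-biased genes moved in opposite directions in the same animals. Control mice 2 and 3 and LKO mouse 1, picked out after the values were seen, were the highest of their groups in 13 of 24 male-biased genes and 7 of 10 major urinary proteins. They were the lowest of their groups in 11 of 20 female-biased genes, and the highest in 2, Cyp17a1 and Adgrf1. Selenbp2, a male-biased selenium-binding protein, had 262, 3144, 2070.4 and 46.8 CPM in controls and 1984, 46.6, 263 and 138 CPM in LKO mice. Mup20, the pheromone darcin, had 3257, 10845, 23546 and 3005 CPM in controls and 9224, 1503, 5465 and 3361 CPM in LKO mice. Both were high in control mice 2 and 3 and LKO mouse 1. Cyp2b9 and Cyp4a14 were lowest in those mice. Cyp2b9 had 12.8, 0, 0 and 106 CPM in controls and 0, 141, 4.65 and 26.7 CPM in LKO mice, and Cyp4a14, a fatty acid hydroxylase also driven by fasting, had 52.8, 1.18, 0.668 and 403 CPM in controls and 2.76, 641, 36.7 and 138 CPM in LKO mice. The fold change between genotypes is correspondingly loose, 0.53 with an interval from -3.06 to 4.13 for Cyp2b9.

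The same 3 mice stood apart in the genome-wide pattern. The first principal component of the deviations from each genotype's mean held 51.9% of the variance, with scores of -14.2, 15.3, 25.9 and -26.9 in controls and 26.5, -12.6, -2.31 and -11.6 in LKO mice. Its positive end was led by Moxd1, Scara5, Selenbp2, Ugt2b38 and Mup genes, and its negative end by Cyp2b9, Cyp4a14, Acot3 and Cyp4a10. Control mice 2 and 3 and LKO mouse 1, the 3 at the positive end, were also the 3 libraries with over 10% unmapped reads, and the part of library quality in this component was not tested. All 8 mice were males by their transcripts, with Y-linked genes detected and Xist near the floor. Without these 3 libraries the median SD of female-biased genes was 0.737 and that of major urinary proteins 1.07, beside 0.182 over all genes, and the first component of the remaining 5 mice held 50.5%.

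ER stress genes followed the same split, with mean deviations of the list from the genotype mean of -0.06, 0.33, 0.26 and -0.52 in controls and 0.57, -0.24, -0.45 and 0.12 in LKO mice. Creld2, an ER stress chaperone, had 103, 333, 299 and 61.3 CPM in controls and 343, 57.7, 34.1 and 137 CPM in LKO mice. Hspa5, the ER chaperone BiP, had 1517, 2523, 2795 and 802 CPM in controls and 2231, 791, 788 and 1562 CPM in LKO mice. For both, control mice 2 and 3 were the highest of the controls, control mouse 4 the lowest, and LKO mouse 1 the highest of the LKO mice. Cytosolic heat shock proteins had mean deviations of a like order in controls, -0.13, 0.33, 0.29 and -0.49, while in LKO mice they were 0.13, -0.51, 0.15 and 0.23, with LKO mouse 1 below LKO mice 3 and 4. Hsp90aa1, the heat shock member with the largest spread, had 365, 699, 1019 and 182 CPM against 473, 159.5, 353 and 333 CPM, highest in LKO mouse 1 unlike its list. Acute-phase proteins had mean deviations of -0.68, 0.41, 0.49 and -0.23 in controls and 0.68, 0.00, -0.49 and -0.19 in LKO mice. PPAR-alpha genes had 0.21, -0.37, -0.50 and 0.65 against -0.51, 0.41, -0.09 and 0.19, lowest in control mice 2 and 3 and LKO mouse 1.

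The second component held 18.7% of the variance and set LKO mouse 1 and control mouse 2, with scores of 13.9 and 10.6, against LKO mouse 3 and control mouse 3, with -18.8 and -14.0. Ddit4, a stress and glucocorticoid-induced inhibitor of mTORC1, had 18.2, 137, 57.8 and 61.5 CPM in controls and 224, 7.05, 10.0 and 12.0 CPM in LKO mice. Cish, a growth hormone target that feeds back on its receptor, had 55.1, 44.7, 56.3 and 8.63 CPM in controls and 1.35, 64.9, 24.4 and 20.1 CPM in LKO mice. Bcl6, a repressor of female-biased genes, was highest in control mouse 2 and LKO mouse 1, at 52.1 and 82.1 CPM, and between 12.8 and 18.9 CPM in the other 6. Among acute-phase genes Saa2 was 172 CPM in LKO mouse 1 and between 2.75 and 39.9 CPM in the other 7.

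A few genes had a wide gap between neighbouring mice. By a rule set after the values were seen, a gap of at least 3 on the log2 scale between neighbouring mice, 9 genes were found. These were Moxd1, Gm4737, Cyp2b9, Scara5, BC002163, Acot3, Cyp4a14, Mt2 and Fam107a. Above the gap, the values of Cyp2b9 and Cyp4a14 given earlier still spread widely. For Moxd1 and Cyp2b9 the mice below the gap were at 0, so its size depends on the prior count. Moxd1, a male-biased monooxygenase-like gene, was listed at 0 in 5 mice and at 68.1, 165 and 42.4 CPM in control mice 2 and 3 and LKO mouse 1. Scara5, a ferritin receptor, was at 50.7, 56.3 and 55.0 CPM in the same 3 mice and between 0.426 and 1.19 CPM in the other 5. Gm4737 and BC002163 followed other mice, with Gm4737 at 6.66 and 5.65 CPM in control mice 2 and 4 and between 346 and 853 CPM in the rest, and BC002163 at 0.668 CPM in control mouse 3 and between 25.3 and 33.7 CPM in the rest. Mt2, a metallothionein, ran from 3.95 CPM in control mouse 1 to 829.9 CPM in control mouse 3.

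**Figure D5:**
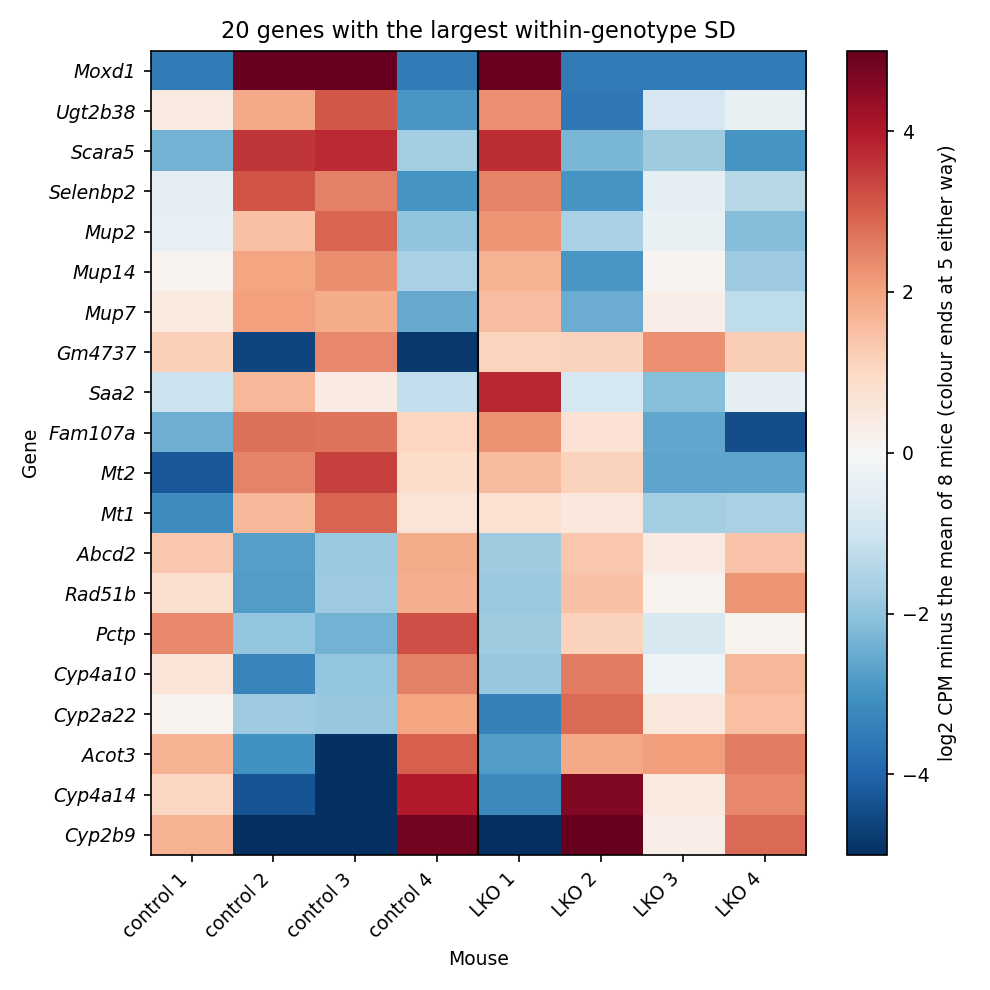
Log2 CPM of each of the 8 mice minus the mean of the 8 for the 20 genes with the largest within-genotype SD, genes in rows, mice in columns, red above and blue below the mean, with the colour ending at 5 either way. Control mice 2 and 3 and LKO mouse 1 share high values of Moxd1, Scara5 and Selenbp2 and low values of Cyp2b9, Cyp4a14 and Acot3.

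The leading genes of the genotype comparison were chosen by p and so differed by more than this spread. The 5 S phase members whose groups did not overlap, Uhrf1, Pold1, Mcm5, Gins3 and Mcm3, had within-genotype SDs of 0.57, 0.28, 0.45, 0.43 and 0.20, against differences of 1.92, 0.84, 1.11, 1.2 and 0.54. Mcm10, lower in LKO, had an SD of 0.47 against -0.82. Egr1 and Foxa3 had SDs of 0.46 and 0.25 against differences of -1.50 and -0.84. Serpina4-ps1, a pseudogene of the serpin cluster, showed how 1 mouse can carry a value. It had 496, 505, 1061 and 35.4 CPM in controls and 99, 141, 121 and 119 CPM in LKO mice, so that leaving out control mouse 4 turned 0 calls into 1.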

How the data were processed

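Libraries at 0 h were made from whole-liver RNA of separate single mice. Reads were trimmed and aligned with STAR (mm10), and the authors deposited the resulting raw counts of 24411 genes without normalization. The column of deposited counts that disregards strand was used, and the entries that name no gene (21.0% to 39.9% of reads) were left out. The annotation version is not given in the sources used here. The analysis used edgeR 4.0.16 in R 4.3.3 (filterByExpr, TMM, quasi-likelihood F-test, 2-sided, Benjamini-Hochberg over all genes kept) for 4 LKO against 4 control mice. A call required 1.5-fold or more and an adjusted p under 0.05. The LKO minus HKO difference was fitted over 14 mice. Log2 CPM had a prior count of 2 for the spread between mice and a pseudocount of 0.2 CPM for pools. The fit was tested on simulated data.

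The members and gene lists were chosen with earlier results of these data known, so lists are described by counts and medians without a test of their own. The genes named are the E2F family, the genes the study names for these samples and the 10 on each side with the smallest p at a mean of at least 1 CPM. Up to 4 members per list by size of change or of spread, the 20 genes with the largest spread and the leading genes of the first 2 components are also named. So are Cyp2e1, Cyp1a2, Mapk8, Mapk9 and Map2k4, whose proteins the study measured, and Map2k7, whose protein it did not. Others were chosen after their values were seen, among them the E2F targets at an unadjusted p under 0.05, Pcna, Tk1, Rrm2, Cdk1, Mx1, Hspa5 and St5. The alternatives were DESeq2 1.42.0, RLE and library-size scaling, other count filters, stranded counts, robust dispersion, a replicate block, a surrogate variable (sva 3.50.0), a joint fit, and leaving out each mouse. Coordinates and promoters are RefSeq's on GRCm38.p6, and 24289 of 24411 symbols (99.5%) were matched.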

Additional observations from a re-analysis of the deposited data

Results flagged for a closer look

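For the 52 genes whose values are given by mouse, both groups of 4 were examined for a mouse whose gap to its nearest neighbour, as a share of the group's range on the log2 scale, exceeds Dixon's 95% critical value, which chance passes in about 1 in 20 groups. That rate does not apply to genes chosen for their spread or for wide gaps, which are among the 52, so the count is no measure of excess over chance. It was exceeded in 16 of 104 groups, with the share given in parentheses, most often by LKO mouse 1, in 5. LKO mouse 1 was the lowest of its group for Acot3, at 0.674 CPM against 20.8 to 32.3 CPM (0.883), and Ntrk2 (0.872) and the highest for Bcl6 (0.899), Ddit4 (0.847) and Moxd1 (1, with the other 3 LKO mice at 0). Control mouse 3 was the lowest for BC002163 (0.973) and the highest for Adgre1 (0.864), a macrophage marker, at 10.4 CPM against 6.96 to 7.35 CPM. Control mouse 2 was the highest for Bcl6 (0.974) and the lowest for Top2a (0.908). Control mouse 1 was the highest for Nr4a1 (0.853), an immediate-early nuclear receptor, at 102 CPM against 9.85 to 13.9 CPM, and control mouse 4 the lowest for Cish (0.876). LKO mouse 2 was the lowest for Ikzf1 (0.889) and Pola1 (0.865), LKO mouse 3 the highest for Gm4737 (0.877) and Mapk9 (0.844), and LKO mouse 4 the highest for Mki67 (0.863).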

How the results depend on the processing

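No gene was called by edgeR under any other scaling, filter or dispersion tried, nor with stranded counts, a surrogate variable or the joint fit, and DESeq2 called 3 genes. Leaving out each mouse gave 0 to 1 calls, the 1 being Serpina4-ps1 without control mouse 4. The replicate numbers did not pair the mice (correlations of deviations from -0.51 to 0.32), and the replicate block gave 0 calls. For the LKO minus HKO difference DESeq2 called 19 genes. Of 332 fold changes of 21 named genes under the alternatives 0 changed direction, and those of Gt(ROSA)26Sor, Egr1 and Foxa3 passed the threshold with DESeq2. The S phase median became 0.38 with library size only, where that of all genes was 0.13, and ranged from 0.16 to 0.34 without 1 mouse, and the G2/M median from 0.17 to 0.49. The APAP median ranged from -0.22 to 0.030 without 1 mouse. Median SDs without 1 mouse ranged from 1.31 to 1.73 for major urinary proteins and from 0.312 to 0.509 for P450 genes, and acute-phase genes had 0.290 in LKO mice alone. Without the 3 libraries with over 10% unmapped reads, a choice made after seeing the data, the median SDs were 0.737 for female-biased, 0.458 for male-biased, 0.334 for ER stress, 0.267 for P450, 0.228 for acute-phase and 0.163 for S phase genes. Female-biased genes and major urinary proteins took the first 2 places in every setting, in the opposite order in 7 of 16. Male-biased genes came next in every planned setting. The first component held 46.0% at a mean of at least 1 CPM and 48.1% to 59.5% without 1 mouse.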
